A study of Chlorocebus aethiops vervet with 14 samples.

Results

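In the lateral geniculate nucleus of the vervet monkey, RNA from captured cell bodies of parvocellular neurons (P neurons) was compared with RNA from captures of the whole parvocellular layers (P layers). The members were chosen by the titles of the samples, without any measured value: 3 arrays titled as parvocellular neurons and 3 titled as parvocellular layers, which are 6 of the 14 arrays in the series. All animals were normal adult males, with 3 individual animals per group, and the labels do not say whether both groups came from the same animals. Cell bodies were found under a cresyl violet stain and taken by laser capture, about 3000 laser pulses per sample, and total RNA went through 2 rounds of amplification. The layer captures are labelled heterogeneous, so they hold neuronal cell bodies as well as what lies between them, and they are not a neuron-free control. The RNA was hybridized to the Rhesus Macaque Genome Array, a cross-species hybridization, so probes that match the vervet sequence poorly give low signals whatever the capture. The corresponding arrays of the magnocellular layers (3 M neurons and 3 M layers) entered the same model, where they add to the estimate of the spread and allow a test of whether the capture difference itself differed between layer types. The other 2 arrays, on which vervet RNA was hybridized to a human array design, were not used here.

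The lateral geniculate nucleus relays signals from the retina to the visual cortex. Its parvocellular layers hold small relay cells that are driven by midget ganglion cells of the retina and carry fine spatial detail and red-green colour opponency. Relay cell bodies, which use glutamate, lie among local inhibitory interneurons, astrocytes, oligodendrocytes that wrap the passing axons in myelin, microglia and capillaries. The space between the cell bodies is neuropil, where retinal, cortical and brainstem axons meet the relay cell dendrites. A captured cell body therefore holds the somatic part of the neuronal RNA, and a whole-layer capture mixes it with RNA of dendrites, glia and vessels.

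Values given for single arrays are deposited MAS5 signals after each array was scaled to a common median. Differences are P neurons minus P layers on the scale log2(signal + 16), with the model's standard error (SE), and a fold is on that scale, which understates the change of dim probe sets. Adjusted p-values are Benjamini-Hochberg values of limma's moderated test over all 26383 probe sets tested, and a probe set or gene is called at an adjusted p under 0.05. A gene is represented by its brightest tested probe set unless another is named. Levels of different genes are not compared, because probe sets differ in affinity. In captures of this kind fewer cells of a type and less RNA per cell cannot be told apart.

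Before scaling, the median signal was 12.5 to 14.2 over the 6 P arrays, a level near the floor of the array. After scaling to a common median, the summed signal of the 10032 tested genes was 3715200 to 3927900 in P neurons and 2999300 to 3300700 in P layers, so the P neuron arrays lay above all P layer arrays in that sum. Log2 signals correlated at 0.973 to 0.974 between P neuron arrays, at 0.976 to 0.982 between P layer arrays and at 0.959 to 0.965 between the groups, across probe sets, which are not independent replicates. The 2 captures differed in the control probe sets that read the RNA from its 3′ end inward. GAPDH, a glycolytic enzyme used as a control transcript, had a mean 3′ signal of 10349 in P neurons and 10373 in P layers, while the middle set read 2587 against 605 and the 5′ set 1274 against 324. The 3′ set stood at 85.4% to 99.5% of the highest signal on its array, so its near-equal means do not show that the amount of 3′ RNA was equal. The 5′ signal was 9.65% to 13.8% of the 3′ signal in P neurons and 2.99% to 3.20% in P layers, with no overlap. The middle set of actin was 2.38 times as high in P neurons while its 3′ set was 1.07 times as high. The middle set for dap, one of the bacterial poly-A RNAs that the array carries as controls, lay at 54.5% to 64.2% of its 3′ set in P neurons and at 30.0% to 39.5% in P layers. The 3′ sets of the bacterial RNAs dap, thr, lys and phe were themselves 1.99, 2.50, 2.47 and 1.92 times as high in P neurons, without overlap. An exact permutation test of 3 arrays against 3 cannot go below p = 0.1. Each of these separations other than the 3′ sets of GAPDH and actin reached that value. The part of the poly-A controls in the scaling and the calls was not tested. The controls added at hybridization, bioC and cre, overlapped, at 0.900 and 0.957 times the P layer mean.

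**Figure D1:**
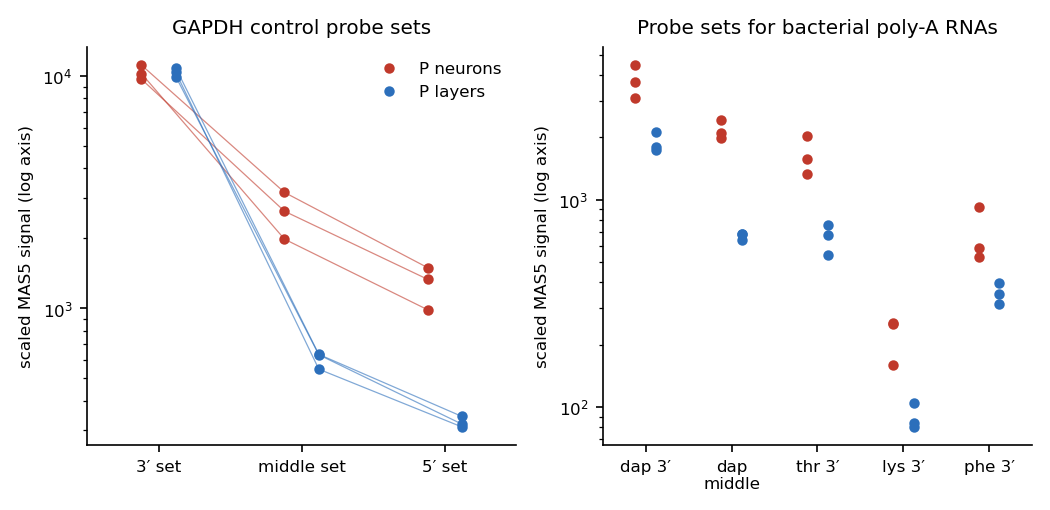
Scaled MAS5 signal on a log axis of the GAPDH control sets along the transcript, with lines joining the sets of 1 array (left), and of bacterial poly-A control sets (right), for the 3 P neuron arrays (red) and the 3 P layer arrays (blue). The GAPDH 3′ sets overlapped between the groups, and the middle and 5′ sets of the P neurons lay above all P layer arrays. All bacterial poly-A sets shown also lay higher in each P neuron array than in each P layer array.

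The captures were also run on different fluidics stations. P neuron 1 ran on station 3, P neurons 2 and 3 on station 4 and all P layers on station 5, and all neuron arrays of the series were scanned before all layer arrays, so within the P arrays capture, station and scan order cannot be told apart. The part of RNA length, station and scan order in the results below was not tested, apart from the values with station in the model and within station 4. Station 4 also held 2 M layer arrays, whose GAPDH 5′ signal was 2.73% and 3.46% of the 3′ signal against 9.65% and 13.8% in P neurons 2 and 3.

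More genes read higher in P neurons than in P layers. Of 26383 probe sets, 3421 were higher in P neurons (13%) and 528 lower (2.00%), so 15% were called in all, and 7463 had an unadjusted p under 0.05. Of 10032 genes, 1651 were higher (16.5%) and 237 lower (2.36%). The median difference over all tested genes was 0.19 rather than 0. The tests are against 0, and differences are given without taking off that shift. With arrays centred on the tested probe sets, 9 of the 112 called genes named here lost the call, among them ANK2, STMN2 and VSNL1. The shift grew with signal, from a median of -0.01 in the dimmest of 10 equal classes of signal to 0.33 in the ninth and 0.30 in the brightest. The 3 P neuron arrays lay above all 3 P layer arrays for 31.7% of genes and below them for 6.67%.

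The split between higher and lower genes followed the scaling. After quantile normalization, which forces the 12 arrays to 1 distribution, 488 genes were higher (4.86%) and 515 lower (5.13%), and higher calls made up 51.0% of the called probe sets against 86.6% before. With arrays centred on the tested probe sets, 1859 probe sets were higher and 904 lower. Genes called under both the median scaling and quantile normalization numbered 487 higher and 234 lower. The number of called probe sets also rested on single arrays: it was 2159 without P layer 3, 2576 without P layer 1 and 2579 without P neuron 1. With station as a block it was 232. Within station 4, where P neurons 2 and 3 were set against the M layers 1 and 2 that ran with them, it was 1551. In the model with station as a block, the offset between stations 4 and 5 rests on M layer 3, on station 5, against M layers 1 and 2. All P layers ran on station 5, so the P difference in that model depends on M layer 3 too. Of the 10032 genes, 64 were higher and 31 lower with station as a block. With same-numbered arrays taken as pairs, called the replicate block below, 2158 genes were higher and 330 lower.

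**Figure D2:**
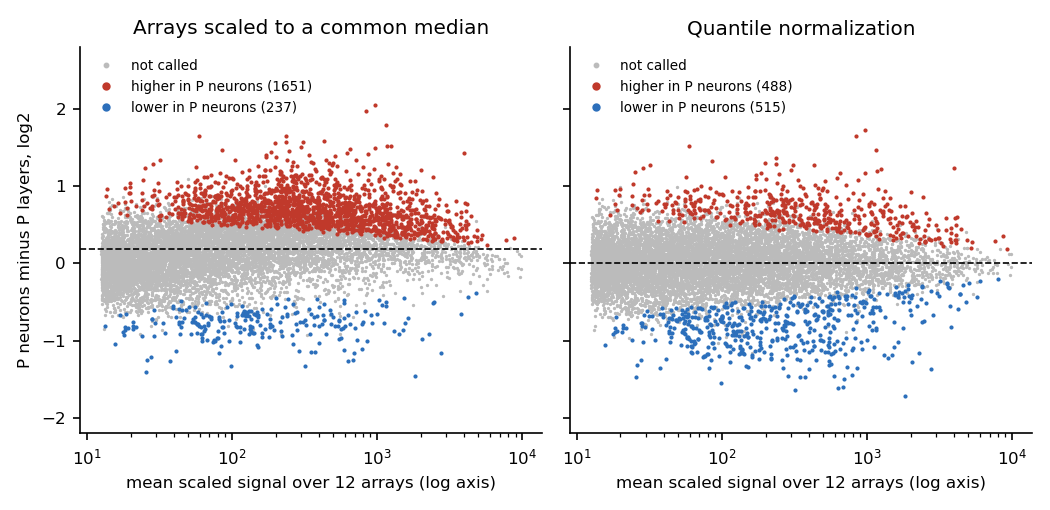
Difference between P neurons and P layers of each of 10032 genes on the log2 scale against its mean scaled signal on a log axis, with arrays scaled to a common median (left) and after quantile normalization (right); the dashed line is the median difference. The cloud of bright genes sat above 0 on the left, with 1651 genes higher and 237 lower, and lay around 0 on the right, with 488 higher and 515 lower.

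Of the markers shared by many neurons, a part was higher in the captured cell bodies and none lower. Of 24 pan-neuronal genes listed, 16 were tested, and 7 were higher (43.8%, against 16.5% of all genes) and 0 lower, with a list median of 0.40 against 0.19 over all genes. NDRG4, a member of the N-myc downstream-regulated family that is abundant in brain, read 1518, 1371 and 1333 in P neurons and 499.7, 533 and 439 in P layers. Its lowest P neuron array was well above its highest P layer array, a difference of 1.49 ± 0.12 (SE), or 2.81-fold, with an adjusted p of 2.87e-06 in limma. TUBB3, the neuronal beta tubulin, read 3102, 2420 and 2869 in P neurons against 1799.7, 1622 and 1705 in P layers. The groups were again apart, by 0.70 ± 0.10 (limma adjusted p = 0.000307). THY1, a surface glycoprotein of projection neurons, read 942, 709 and 1169 against 443, 385 and 566, so that its lowest neuron array exceeded its highest layer array by less than the spread within either group. Its difference was 0.98 ± 0.21 (limma adjusted p = 0.00543). ENO2, the neuronal enolase, differed by 0.89 ± 0.14, the stathmins STMN3 and STMN2, which bind tubulin, by 0.70 ± 0.13 and 0.31 ± 0.07, and NELL2, a secreted neuronal glycoprotein, by 0.56 ± 0.12. After quantile normalization 4 of the 16 were called, and THY1 (adjusted p = 0.0836), STMN3 (0.0567) and NELL2 (0.093) no longer passed limma's test.

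Not every neuronal marker was called. SYT1, the calcium sensor of transmitter release, read 6384, 6047 and 6162 in P neurons and 6781, 6555 and 6299 in P layers, and GAP43, a growth-cone protein, differed by -0.12 ± 0.11 (limma adjusted p = 0.538). These were overlapping groups on both genes. Other probe sets of the same genes read differently. A dimmer SYT1 set had means of 1249 in P neurons and 535 in P layers, a difference of 1.21 (limma adjusted p = 0.0107), and the other 2 sets differed by 0.16 and 0.33 (limma adjusted p = 0.183 and 0.129), so 3 of its 4 sets were positive and 1 was called. Dimmer sets also differed more for TUBB3, 379 against 88 (1.94, limma adjusted p = 9.25e-06), and for STMN2, 2372 against 916 (1.37, limma adjusted p = 1.38e-05). The summed signal of the 16 pan-neuronal genes was 36211 to 36643 in P neurons and 28112 to 32167 in P layers.

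Markers of thalamic relay cells stood close to the median of all genes. Of 18 listed, 10 were tested, and 2 were higher (20%, near the 16.5% of all genes) and 0 lower, with a median of 0.20. With the replicate block 4 were higher. RORA, a nuclear receptor of sensory thalamus, read 1646, 1901 and 1855 against 1077, 1584 and 953, a difference of 0.60 ± 0.17 (limma adjusted p = 0.0218). GRID2IP, a scaffold first described at a cerebellar synapse, differed by 0.59 ± 0.17 (limma adjusted p = 0.0266). The call of RORA was lost without P neuron 2, P neuron 3, P layer 1 or P layer 3, with limma adjusted p-values of 0.0626 to 0.129. The call of GRID2IP was lost without P neuron 1, P neuron 2, P neuron 3, P layer 2 or P layer 3, with limma adjusted p-values of 0.0589 to 0.0935. Neither passed after quantile normalization, with limma adjusted p-values of 0.272 and 0.358. TCF7L2, the Wnt pathway transcription factor that marks thalamic neurons, read 5820.4, 5808 and 5347 in P neurons and 5681, 5298 and 4983 in P layers on its brightest set. Of its dimmer sets 1 was higher in P neurons, 823 against 374 (limma adjusted p = 0.000242), and another was lower, 83.5 against 143 (limma adjusted p = 0.0225), so the probe sets of this gene disagreed. FOXP2, a forkhead factor, read 21.5, 111 and 55.5 against 16.5, 36.6 and 19.1, with P neuron 1 among the P layer arrays. Its adjusted p was 0.0929 in limma and 0.0286 with the replicate block, which takes same-numbered arrays as pairs.

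No tested gene of inhibitory interneurons was called, where 16.5% of all genes were higher and 2.36% lower. With the replicate block 1 was lower, as were 330 of all 10032 genes. The list held 8 tested genes, with a median of -0.26 against 0.19 over all genes. GAD1, which encodes the main enzyme of GABA synthesis, read 591, 514 and 352 in P neurons and 574, 428 and 525 in P layers. The lowest and the highest of the 6 values were both P neuron arrays, and the 95% confidence interval of the difference ran from -0.69 to 0.52. Within station 4, against M layers, the GAD1 difference was -1.16 (limma adjusted p = 0.0297). GAD2, the synaptic form of the enzyme, was dim, at 21.1, 10.8 and 6.96 against 35.3, 26.8 and 22.5. All P neuron values of GAD2 were the lower ones, with a limma adjusted p of 0.0782, and 0.0392 with the replicate block.

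**Figure D3:**
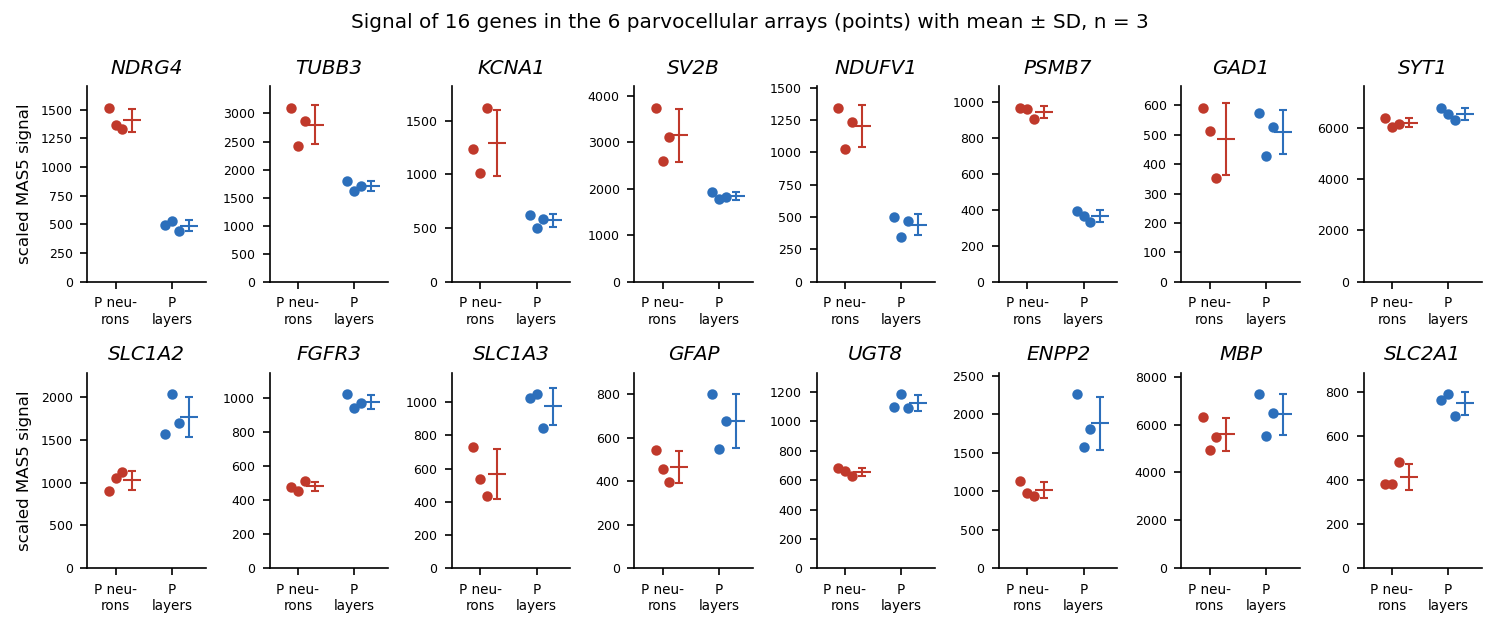
Scaled MAS5 signal (linear axis from 0) of 16 genes in each of the 3 P neuron arrays (red) and 3 P layer arrays (blue), with mean ± SD. The groups were apart in the neuronal, channel, respiratory and proteasome genes of the upper row up to PSMB7, overlapped for GAD1, SYT1 and MBP, and were reversed in order for the other glial and vascular genes of the lower row.

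Some astrocyte genes were lower in the cell body captures. Of 24 listed, 14 were tested, and 5 were lower (35.7%, against 2.36% of all genes), 1 was higher and 8 were not called, with a median of -0.47. FGFR3, a growth factor receptor enriched in astrocytes, read 476, 457 and 511 in P neurons and 1024, 941 and 974 in P layers. All P neuron arrays lay well below the P layers, a difference of -1.0 ± 0.13 (limma adjusted p = 0.000121). SLC1A2, the glutamate transporter GLT-1, read 908, 1060.2 and 1124 against 1574, 2032 and 1697 (-0.77 ± 0.16, limma adjusted p = 0.00366). SLC1A3, the glutamate transporter GLAST, read 732, 538 and 437 against 1027, 1047 and 846 (-0.78 ± 0.17, limma adjusted p = 0.00476). Both transporters were lower in every P neuron array than in any P layer array. The remaining lower genes were ID4, an inhibitor of helix-loop-helix factors, at -0.80 ± 0.22, and S100B, a calcium-binding protein of astrocytes, at -0.81 ± 0.26. The call of ID4 was lost without P neuron 1, P neuron 3, P layer 1 or P layer 2, with limma adjusted p-values of 0.059 to 0.0881. The call of S100B was lost without P neuron 1, P neuron 2, P neuron 3, P layer 1 or P layer 3, with limma adjusted p-values of 0.0877 to 0.142. ALDOC, the brain aldolase, was the member that was higher, by 0.47 ± 0.09 (limma adjusted p = 0.00247, and 0.101 after quantile normalization). Its dimmer set differed more, 931 against 427 (1.09, limma adjusted p = 0.000993). ALDOC is listed among the glycolytic genes as well.

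The classic astrocyte filament gene was less clear. GFAP read 542, 458 and 398 in P neurons and 799, 549 and 678 in P layers, with every P neuron array below every P layer array but by little. Its difference of -0.52 ± 0.22 had a limma adjusted p of 0.135, against 0.0285 after quantile normalization and 0.00975 with the replicate block. A second GFAP set went the other way, 199 against 134 (limma adjusted p = 0.173). GLUL, glutamine synthetase, read 5946, 4538 and 4528 against 6808, 6219 and 6113, with limma adjusted p-values of 0.0659, 0.0434 after quantile normalization and 0.00271 with the block. NDRG2 differed by 0.28 on its brightest set (limma adjusted p = 0.225) and by -0.59 on a second (limma adjusted p = 0.00893). The summed signal of the 14 genes was 12793 to 14957 in P neurons and 15722 to 16990 in P layers, of which GLUL alone gave 4528 to 5946 and 6113 to 6808. The lowest single value of a member was 6.96 in P neurons and 12.2 in P layers, near the floor of the array.

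Genes of oligodendrocytes and myelin were lower in part. Of 27 listed, 14 were tested, and 4 were lower (28.6%, against 2.36% of all genes) and 0 higher, with a median of -0.39. UGT8, which makes the myelin lipid galactosylceramide, read 682, 664 and 626 in P neurons and 1099, 1185 and 1091 in P layers (-0.76 ± 0.13, limma adjusted p = 0.00133). ENPP2, autotaxin, read 1129, 976 and 932 against 2258, 1578 and 1808 (-0.87 ± 0.19, limma adjusted p = 0.00463). The dimmer sets of these genes were not called, with differences of -0.21 for UGT8 and of -0.05 and -0.25 for ENPP2 (limma adjusted p = 0.437, 0.921 and 0.529). ASPA, the aspartoacylase of oligodendrocytes, read 256, 149 and 169 against 544, 326 and 445 (-1.14 ± 0.24, limma adjusted p = 0.00487). On the brightest sets of UGT8, ENPP2 and ASPA the highest P neuron array lay below the lowest P layer array. BCAS1, a gene of oligodendrocytes that are starting to make myelin, differed by -0.80 ± 0.20. The call of BCAS1 was lost without P neuron 2 or P layer 1, with limma adjusted p-values of 0.0617 to 0.0785. GPR37 and QKI, not called on their brightest sets, each had a dimmer set that was lower. That of GPR37 read 213 against 525 (limma adjusted p = 0.000297), and that of QKI differed by -0.89 (limma adjusted p = 0.00501). The remaining QKI sets were not called. The dimmer sets of MBP, CNP, MYRF and TSPAN2 had positive differences and were not called.

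The structural myelin genes did not show the same separation. MBP, myelin basic protein, read 6309, 4957 and 5494 in P neurons and 7263, 5529 and 6479.6 in P layers, overlapping ranges with a limma adjusted p of 0.302, and 0.0475 with the replicate block. CNP, an enzyme of the inner myelin loops, read 4538, 4645 and 4116 against 4463, 4455 and 4004. The 95% confidence interval of its difference was -0.12 to 0.20, and its sign turned after quantile normalization, at -0.12. The summed signal of the 14 genes was 12741 to 14626 in P neurons and 15235 to 17847 in P layers. After quantile normalization 8 of the 14 genes were lower, and 7 of the 14 astrocyte genes.

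Few genes of the smaller glial lists were called, with 14.3% of precursor and 7.69% of microglial genes lower, against 2.36% of all genes. Of 7 tested genes of oligodendrocyte precursors 1 was lower, VCAN, the proteoglycan versican, at 73.0, 74.8 and 62.9 against 192, 104 and 198. Of 13 tested microglial and macrophage genes 1 was lower, P2RY12, the purinergic receptor of resting microglia, at 29.3, 42.5 and 38.9 against 95.4, 57.5 and 104. Both genes were dim, and each P neuron array lay below each P layer array. The call of VCAN was lost without P neuron 3, P layer 1 or P layer 3, with limma adjusted p-values of 0.0505 to 0.085. The call of P2RY12 was lost without P neuron 1, P layer 1 or P layer 3, with limma adjusted p-values of 0.0699 to 0.0926. CD68, a lysosomal protein of macrophages that other cells hold too, read 1422, 1099 and 1103 against 862, 1030.3 and 917, with the P neurons above and a limma adjusted p of 0.092. With the replicate block 2 precursor genes were lower. SOX6, not called on its brightest set, had a dimmer set that was lower, 33.3 against 90.9 (limma adjusted p = 0.00149). Another SOX6 set was not called (-0.38, limma adjusted p = 0.271). The dimmer sets of VCAN and of CSPG4, also listed for precursors, were not called, at -0.43 and -0.25 (limma adjusted p = 0.231 and 0.606). The list medians were -0.20 for precursors and -0.28 for microglia. The summed precursor signal was 277 to 300.5 in P neurons and 333 to 489 in P layers. The summed microglial signal was 1396 to 1747 in P neurons and 1307 to 1395 in P layers. CD68 alone gave 1099 to 1422 of it in P neurons and 862 to 1030.3 in P layers.

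Endothelial genes were lower in P neurons for 4 of 13 tested (30.8%, against 2.36% of all genes), with 0 higher and a median of -0.26. With station as a block none of the 13 was called, where 64 of all 10032 genes were higher and 31 lower. The endothelial median then turned to 0.05, against 0.17 over all genes. SLC2A1, the glucose transporter of the blood-brain barrier, read 382, 382 and 482 in P neurons and 766, 791 and 693 in P layers (-0.83 ± 0.14, limma adjusted p = 0.000749). SLCO1A2, an organic anion transporter of brain capillaries, read 197, 182 and 148 against 318, 391 and 297 (-0.87 ± 0.21, limma adjusted p = 0.011). The 2 transporters were lower in each P neuron array than in each P layer array. PECAM1, an adhesion molecule between endothelial cells, differed by -0.72 ± 0.18, and VWF, von Willebrand factor, by -0.94 ± 0.27. The call of PECAM1 was lost without P neuron 1 (limma adjusted p = 0.0665). The call of VWF was lost without P neuron 3, P layer 2 or P layer 3, with limma adjusted p-values of 0.0686 to 0.125. The difference of VWF was -0.56 without P neuron 3. Of 11 genes of mural cells and fibroblasts 1 was lower (9.09%), CALD1, caldesmon of smooth muscle, at -0.76 ± 0.16 (limma adjusted p = 0.00389). Under the replicate block 2 were lower. Of 3 blood cell genes 0 were called. The summed endothelial signal was 1638 to 1926 in P neurons and 2317 to 2811 in P layers, and that of mural cells and fibroblasts was 887 to 1109 in P neurons and 1312 to 1434 in P layers.

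The summed signals of the astrocyte, oligodendrocyte, precursor, endothelial and mural lists were lower in each P neuron array than in each P layer array, while the summed signal of all tested genes was higher. The summed signal of the microglia and macrophage list was higher in each P neuron array as well, by little at the nearest values. CD68, which other cells hold too, made up most of that sum, and 8 of the 13 genes had negative differences. The summed signal of the 3 blood cell genes overlapped, at 69.8 to 87.8 in P neurons and 40.3 to 87.2 in P layers. The pan-neuronal sums lay above in all P neuron arrays.

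The largest single differences toward P neurons were spread over genes of several roles. Those named here are the 15 genes with the largest difference among called genes whose groups did not overlap. GAPDH came first on its annotated probe set, at 1744, 1114 and 1429.6 in P neurons and 364, 295 and 322 in P layers, a difference of 2.06 ± 0.19 or 4.16-fold (limma adjusted p = 9.27e-06). Of the GAPDH control sets described above, the middle and 5′ sets were 4.28 and 3.94 times as high in P neurons. PRICKLE4, of the planar polarity family, read 1408, 975 and 1352 against 337, 235 and 340.2, and TCP1, a subunit of the chaperonin that folds tubulin and actin, 1854, 1406 and 1938 against 435, 555 and 473. In both the gap between the groups was wider than the range within either. GOT1, the cytosolic aspartate aminotransferase, read 2013, 1709 and 1841 against 611, 659 and 629, and TUBB, a beta tubulin, 1771, 1547 and 1394 against 553, 539 and 512. IMMT, a mitochondrial inner membrane organizer, differed by 1.65 ± 0.17, PHB1, prohibitin, by 1.59 ± 0.22, and TPI1, triosephosphate isomerase, by 1.57 ± 0.16.

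The other higher genes of this set were CEBPZ (1.57), SUPT16H (1.56), a histone chaperone subunit, OSTC (1.51), a subunit of the oligosaccharyltransferase of the endoplasmic reticulum, NDRG4 (1.49), NOP16 (1.47), a nucleolar protein, AP2S1 (1.44), a subunit of the clathrin adaptor, and PYURF (1.43), which shares a transcript with PIGY. Limma adjusted p-values of the 15 ran from 2.87e-06 to 0.00156. Second probe sets did not always follow: the other TPI1 set was at 36.8 and 35.1 (limma adjusted p = 0.998), and another TCP1 set differed by 0.39 (limma adjusted p = 0.148). A NOP16 set had the opposite sign, at -0.47 (limma adjusted p = 0.201). Of the 15 brightest sets 7 were of the types that may share probes with other transcripts, against 9.67% of all tested genes and 13.9% of genes called higher.

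The largest differences toward P layers were led by SELENOP, the plasma selenium carrier that glia also make. It read 1408, 1103 and 891 in P neurons and 3509, 2815 and 2954 in P layers. Every P neuron array was far below every P layer array, a difference of -1.45 ± 0.24 (limma adjusted p = 0.000742). SPTBN1, a spectrin of the membrane skeleton, read 212, 204 and 149 against 522, 472 and 479, and TJP1, the tight-junction scaffold ZO-1, 342, 447 and 379.7 against 961, 1004 and 899. SLC45A2, a transporter best known from melanosomes, read 1743, 2009 and 1597 against 3820, 4761 and 3475 (-1.16 ± 0.15, limma adjusted p = 0.000152). All 3 were lower in each P neuron array than in any P layer array. FGFR2, a growth factor receptor, differed by -1.25 ± 0.20, ANLN, the actin-binding anillin that is also found in myelin, by -1.15 ± 0.15, and ASPA by -1.14 ± 0.24. A second SPTBN1 set was at 235 and 213 (0.14, limma adjusted p = 0.644), so the difference of SPTBN1 belongs to 1 of its sets. Second sets of SELENOP and TJP1 were not called, at -0.44 and -0.20 (limma adjusted p = 0.345 and 0.557). Nor were other FGFR2 sets, at -0.42 and -0.36 (limma adjusted p = 0.254 and 0.412). For ANLN another set was called lower, at -0.93 (limma adjusted p = 0.0143), and a dim one was not, at 0.08 (0.883). Over all genes called lower, 24 of 157 other sets were called lower and 108 had the same sign, and over genes called higher, 348 of 1167 other sets were called higher and 957 had the same sign.

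Of the remaining lower genes, NR2E1, the nuclear receptor TLX, differed by -1.16 ± 0.27, GASK1B by -1.14 ± 0.19, EVI2A, which lies within an intron of NF1, by -1.14 ± 0.20, and NCKAP5 by -1.14 ± 0.23. The other 4 were dim, with P layer means of 47.5 for CYB5R3, a cytochrome b5 reductase, 55.8 for SMOC1, a secreted matrix protein, 44.1 for GPR62, an orphan receptor, and 38.9 for SLC1A7, a glutamate transporter known from retina. In P neurons CYB5R3 read 18.9, 3.60 and 3.87, SMOC1 12.1, 28.9 and 4.93, GPR62 12.8, 1.84 and 15.2 and SLC1A7 3.20, 1.77 and 23.3. Such values lie near the floor of the array, so their fold depends on the constant added. The call of CYB5R3 was lost without P neuron 2, P neuron 3 or P layer 1, with limma adjusted p-values of 0.0543 to 0.0595. All 30 genes of both directions were called after quantile normalization, 26 within station 4 and 17 with station as a block.

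A minority of the potassium channel subunits were called. Of 42 listed, 22 were tested, and 6 were higher (27.3%, against 16.5% of all genes), 1 was lower and 15 were not called, with a median of 0.29, and of 0.03 after quantile normalization. KCNA1, which encodes the low-threshold channel Kv1.1, read 1234, 1011 and 1620 in P neurons and 624, 502 and 589 in P layers, a difference of 1.13 ± 0.20 (limma adjusted p = 0.00154). The P neuron arrays of KCNA1 varied among themselves, but the lowest was still above every P layer array. KCNA2, encoding Kv1.2, read 4440.3, 3894 and 3669.6 against 3009, 2914 and 2774 (0.46 ± 0.09, limma adjusted p = 0.00241). Within station 4, against M layers, the KCNA2 difference was 0.03 (limma adjusted p = 0.917). KCNIP4, a calcium-binding partner of Kv4 channels, read 110.0, 97.7 and 88.2 against 28.0, 42.2 and 40.4 (1.12 ± 0.22, limma adjusted p = 0.00255). KCNAB1, an auxiliary beta subunit of Kv1 channels, differed by 0.66 ± 0.13, KCNA4, encoding Kv1.4, by 0.88 ± 0.20, and KCND2, encoding Kv4.2, by 1.04 ± 0.30. After quantile normalization KCNAB1 and KCND2 did not pass limma's test (adjusted p = 0.144 and 0.0545). The call of KCNA4 was lost without P layer 3 (limma adjusted p = 0.0519). The call of KCND2 was lost without P neuron 2, P layer 1 or P layer 2, with limma adjusted p-values of 0.0766 to 0.146.

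The lower member was KCNJ10, the inward rectifier Kir4.1 of astrocytes and oligodendrocytes. It read 545, 349 and 367 in P neurons and 777, 562 and 735 in P layers, a difference of -0.71 ± 0.18 (limma adjusted p = 0.0139). The ranges came close, with P neuron 1 just under P layer 2. The call of KCNJ10 was lost without P neuron 2, P neuron 3, P layer 1 or P layer 3, with limma adjusted p-values of 0.0568 to 0.0704. Of 13 sodium, calcium and HCN channel genes tested, 1 was higher (7.69%, against 16.5% of all genes) and 0 lower. It was SCN1A, the sodium channel Nav1.1, at 0.60 ± 0.12, with a limma adjusted p of 0.0025 and of 0.101 after quantile normalization. The median of that list was 0.16, and 3 of its genes were higher with the replicate block or without P layer 2.

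Genes of transmitter release and reception were called in few members. Of 14 vesicle and release genes tested, 3 were higher (21.4%, near the 16.5% of all genes) and 0 lower, with a median of 0.23 that was -0.0087 after quantile normalization, and 5 were higher with the replicate block. SV2B, a synaptic vesicle glycoprotein, read 3739.5, 2601 and 3113 in P neurons and 1927, 1769 and 1828 in P layers (0.76 ± 0.12, limma adjusted p = 0.000423), all P neurons above all P layers. AMPH, amphiphysin, and DNM1, dynamin, which act in vesicle retrieval, differed by 0.76 ± 0.15 and 0.47 ± 0.14. SV2B was the one still called after quantile normalization, where limma adjusted p-values were 0.0588 for AMPH and 0.635 for DNM1. The call of DNM1 was lost without P neuron 1, P neuron 3, P layer 1 or P layer 3, with limma adjusted p-values of 0.086 to 0.153. None of 4 tested glutamate receptor genes was called, and 1 was with the replicate block. Of 7 GABA and glycine receptor genes 1 was higher (14.3%, against 16.5% of all genes), with 2 called under the replicate block. It was GPHN, the postsynaptic scaffold gephyrin, at 0.47 ± 0.15 (limma adjusted p = 0.0374). No leave-one-out model kept the GPHN call, with limma adjusted p-values of 0.059 to 0.134 without each of the 6 P arrays in turn.

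Acetylcholine, monoamine and peptide receptors had a median of -0.0016. Of 19 tested, 1 was higher (5.26%, against 16.5% of all genes) and 1 lower (5.26%, against 2.36%), and 2 were higher with the replicate block. CHRM3, a muscarinic receptor, read 256, 253 and 267 in P neurons and 164, 166 and 152 in P layers, and CHRNA7, the alpha-7 nicotinic receptor, 847, 873 and 586 against 1281, 1334 and 1024. The muscarinic gene lay above the P layers in all P neuron arrays and the nicotinic gene below. Their differences were 0.64 ± 0.15 and -0.66 ± 0.16 (limma adjusted p = 0.0075 and 0.00968). CHRM3 was not called after quantile normalization (0.162). The call of CHRNA7 was lost without P neuron 3 (limma adjusted p = 0.0521). The 3 other sets of CHRNA7 differed by -0.17, 0.12 and 0.38, none of them called.

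Few of the transcripts listed for dendrites and synapses were called. Of 9 tested, 1 was higher (11.1%, against 16.5% of all genes) and 0 lower (against 2.36%), with a median of 0.33, and 3 were higher with the replicate block. The called gene was EEF1A2, a translation elongation factor of neurons and muscle, at 221, 239 and 314 against 164, 202 and 103 (0.70 ± 0.21, limma adjusted p = 0.0337, 0.276 after quantile normalization). The call of EEF1A2 was lost without P neuron 2, P neuron 3, P layer 1 or P layer 3, with limma adjusted p-values of 0.0601 to 0.2. Without P layer 3 the difference of EEF1A2 was 0.46. Of 8 genes of neurofilaments and the axonal skeleton, ANK2, an ankyrin, and STMN2 were higher (25%, against 16.5% of all genes). SPTBN1 was lower (12.5%, against 2.36%), and the list median was 0.16. ANK2 differed by 0.32 ± 0.10 (limma adjusted p = 0.0371). The call of ANK2 was lost without P neuron 1, P neuron 3, P layer 1 or P layer 3, with limma adjusted p-values of 0.0806 to 0.153. NEFH, the heavy neurofilament subunit, read 8453, 7071 and 8295 against 7277, 6699 and 6754, overlapping, with a limma adjusted p of 0.107.

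Calcium-binding proteins and calmodulin kinases were higher in 7 of 14 tested genes (50%, against 16.5% of all genes) and lower in 1, with a median of 0.44. Without P neuron 1, P neuron 2, P layer 1 or P layer 3, each left out alone, 4 were higher. CAMK2B, a subunit of calmodulin kinase II, read 371, 356 and 373 in P neurons and 196, 168 and 184 in P layers (0.95 ± 0.14, limma adjusted p = 0.000379). NCALD, neurocalcin, read 371, 386 and 423 against 181, 236 and 180.4, and VSNL1, visinin-like protein, 4412, 4002 and 4445 against 3491, 3569 and 3325. The groups were apart in all 3 genes. The lower member was S100B, which is also an astrocyte gene. CAMK2B was the one higher member still called after quantile normalization, where NCALD had a limma adjusted p of 0.0625 and VSNL1 of 0.238.

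Genes of the respiratory chain held the most higher genes of the 28 lists by count, in the list with the most tested genes. By share the proteasome list was ahead, at 95.2% against 62.5%. Of 58 listed, 40 were tested, and 25 were higher (62.5%, against 16.5% of all genes) and 1 lower. The median was 0.59 against 0.19 over all genes. NDUFV1, a core subunit of complex I, read 1344, 1024 and 1232 in P neurons and 500.3, 349.9 and 472 in P layers, a difference of 1.42 ± 0.16 or 2.68-fold (limma adjusted p = 5.17e-05). NDUFS3, another core subunit of complex I, read 1922, 1509 and 1770.1 against 801, 681 and 678. In both complex I genes the lowest P neuron array was far above the highest P layer array. SDHB of complex II differed by 1.02 ± 0.15, UQCRFS1, the Rieske protein, and CYC1, cytochrome c1, of complex III by 1.30 ± 0.18 and 1.07 ± 0.12, and COX6B1 of complex IV by 0.60 ± 0.09. After quantile normalization 19 of the 40 were higher and 2 lower, with a median of 0.34. With station as a block 3 of the 40 were higher and 0 lower, against 64 and 31 of all 10032 genes, with a list median of 0.57. The list also holds a pair of genes for the same protein that went opposite ways. ATP5MC3 and ATP5MC1 both encode the c subunit of ATP synthase, and ATP5MC3 read 5137, 4459 and 4939 in P neurons against 3061, 3084 and 2877 in P layers (0.68 ± 0.07, limma adjusted p = 3.15e-05). ATP5MC1 read 614, 487 and 489.7 against 1094, 834 and 941 (-0.83 ± 0.15, limma adjusted p = 0.00143), so every P neuron array of the first gene lay above the P layers and every one of the second below.

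Glycolytic genes were higher in 10 of 19 tested (52.6%, against 16.5% of all genes) and lower in 1, with a median of 0.60. ALDOA, the main aldolase, read 4531, 4375 and 4430.4 in P neurons and 2818, 2453 and 2367 in P layers (0.80 ± 0.09, limma adjusted p = 4.06e-05). LDHA, lactate dehydrogenase A, read 2931, 2749.5 and 2900 against 1751, 1842 and 1671 (0.70 ± 0.09, limma adjusted p = 0.000121), and HK1, the brain hexokinase, differed by 0.83 ± 0.12. These 3 genes had no overlap between the groups. GAPDH, TPI1, ENO2 and ALDOC, given above, are among the 10, and the lower member was SLC2A1, the endothelial glucose transporter. After quantile normalization 6 were higher and 2 lower. The GAPDH control sets differed between the captures at the middle and the 5′ end, and the part of that in the metabolic lists was not tested.

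Proteasome subunits were higher almost throughout. Of 31 listed, 21 were tested, and 20 were higher (95.2%, against 16.5% of all genes) and 0 lower, with a median of 0.84. PSMB7, a catalytic beta subunit of the core particle, read 967, 961 and 905 in P neurons and 395, 367 and 329.8 in P layers (1.34 ± 0.16, limma adjusted p = 5.75e-05). PSMB1, another core subunit, differed by 1.22 ± 0.13, PSMD2 of the regulatory base by 1.01 ± 0.17 and the ATPase subunit PSMC5 by 0.92 ± 0.12. All 4 had their 3 P neuron arrays above the P layers. The exception, PSMA7, was not called, at 0.01 ± 0.07 (limma adjusted p = 0.969), while a dimmer PSMA7 set was higher, 1165 against 785 (0.56, limma adjusted p = 0.00288). After quantile normalization 12 of the 21 were higher, with a median of 0.53, and within station 4 the median was 0.66. With station as a block 3 of the 21 were higher and 0 lower, against 64 and 31 of all 10032 genes, with a list median of 0.89. A dim second set of PSMB1 differed by -0.15 (limma adjusted p = 0.692).

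Cytosolic ribosomal proteins were higher in 9 of 33 tested (27.3%, against 16.5% of all genes) and lower in 0, with a median of 0.25. After quantile normalization the median fell to -0.03, with 5 higher and 3 lower. RPL12 differed by 1.19 ± 0.20, RPL8 by 1.09 ± 0.14 and RPLP2 by 0.91 ± 0.13. Genes of folding and secretion in the endoplasmic reticulum were higher in 8 of 27 (29.6%, against 16.5%) and lower in 0, with a median of 0.37. Without P layer 3 there were 4 higher genes. The disulfide isomerases P4HB and PDIA3 read 351, 351 and 347 against 214, 214 and 208 and 432, 464 and 465 against 295, 285 and 245, and SEC61G, of the translocation pore, 917, 1031 and 832 against 573, 679.8 and 544. These were even levels within each group, with the P neurons above in all 3 genes. After quantile normalization OSTC was the one member of this list that was higher and 1 was lower, while P4HB, PDIA3 and SEC61G had limma adjusted p-values of 0.0842, 0.112 and 0.132.

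Motor proteins and tubulins were higher in 9 of 20 tested (45%, against 16.5% of all genes) and lower in 1, with a median of 0.40. The kinesin heavy chains took opposite directions. KIF5C, a form enriched in neurons, read 1873, 1739 and 1940 in P neurons and 1145, 1255 and 1069 in P layers (0.67 ± 0.10, limma adjusted p = 0.000379). KIF5B, the form found in most cells, read 2028, 1945 and 1949 against 2922, 2759 and 2761 (-0.51 ± 0.11, limma adjusted p = 0.00395). In neither gene did the groups overlap. DYNC1LI1, a light intermediate chain of dynein, differed by 0.75 ± 0.15 and TUBA4A, an alpha tubulin, by 0.52 ± 0.10, of which TUBA4A was not called after quantile normalization (limma adjusted p = 0.137).

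**Figure D4:**
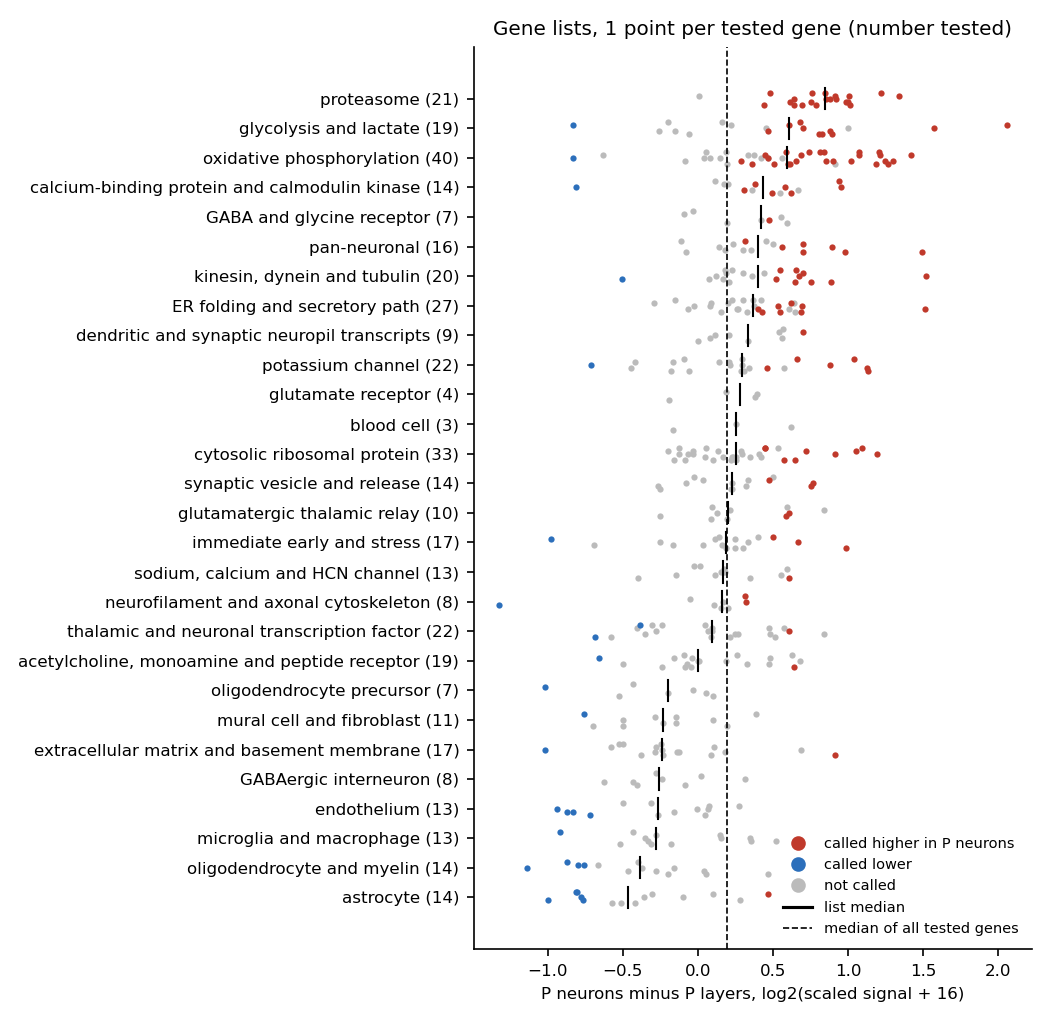
Difference between P neurons and P layers on the log2 scale for each tested gene (1 point) of 28 gene lists, ordered by list median (black tick), with called genes in red (higher) and blue (lower) and the median of all tested genes as a dashed line at 0.19. The proteasome, glycolysis and respiratory lists had the highest medians, 0.84, 0.60 and 0.59, and the astrocyte list the lowest, -0.47.

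Matrix, stress and transcription factor genes were called in few members and in both directions, with list medians of -0.24, 0.19 and 0.09. Of 17 matrix genes tested, VCAN was lower (5.88%, against 2.36% of all genes) and COL5A2, a fibrillar collagen chain, was higher (5.88%, against 16.5%). COL5A2 differed by 0.91 ± 0.14 (limma adjusted p = 0.000442), while its 3 dimmer sets differed by -0.40, 0.09 and 0.55 without a call. With the replicate block 3 matrix genes were lower. Of 17 immediate early and stress genes 3 were higher (17.6%, near the 16.5% of all genes) and 1 lower, with 1 higher and 3 lower after quantile normalization, 1 higher without P neuron 2 or without P layer 3 and 3 lower with the replicate block. DUSP1, an inducible phosphatase, read 2019, 1646 and 2274 in P neurons and 1049, 849 and 1070.5 in P layers (0.98 ± 0.18), and MT2A, a metallothionein, 1189.7, 1567 and 1048 against 2325, 3368 and 1961 (-0.98 ± 0.23). The limma adjusted p-values were 0.00196 and 0.00836, on opposite sides. Of 22 thalamic and neuronal transcription factors RORA was higher (4.55%, against 16.5% of all genes), and 4 genes were with the replicate block. NR2F1 and SOX4 were lower (9.09%, against 2.36%), at -0.39 ± 0.09 and -0.69 ± 0.19. After quantile normalization 0 of the 22 were higher and 6 lower, and the list median turned from 0.09 to -0.24. NR2F1, an orphan nuclear receptor, had a second set that was higher, 455 against 282 (limma adjusted p = 0.0234). The call of NR2F1 was lost without P layer 1 (limma adjusted p = 0.0564). The call of SOX4 was lost without P neuron 1, P layer 2 or P layer 3, with limma adjusted p-values of 0.0729 to 0.102.

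The magnocellular arrays share no array with the parvocellular comparison but were tested in the same model, with a shared estimate of the spread. The labels do not say whether they came from the same animals. Their GAPDH 5′ signal was 8.54% to 18.5% of the 3′ signal in M neurons and 2.73% to 3.46% in M layers. M neurons were also scanned before M layers, so M is not an independent check of P. In M 3559 probe sets were called (13.5%), with 12.5% of genes higher in M neurons and 4.54% lower. Probe sets called in both comparisons with the same sign numbered 2254, which is 57.1% of the P calls and 63.3% of the M calls, and 0 had opposite signs. Of the 3421 probe sets higher in P neurons 3364 had the same sign in M, and of the 528 lower ones 509 did. Of the 30 genes named for their size, 27 were called in M with the same sign, and the exceptions were CYB5R3, GPR62 and SLC1A7, whose M differences were -0.07, -0.46 and -0.07. The proteasome median was 0.66 in M and the respiratory median 0.44. The astrocyte median was -0.69 in M, with 7 genes lower, and the myelin median -0.66, with 8 lower.

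No gene passed the test for a capture difference that itself differed between P and M. The interaction called 0 of 26383 probe sets (0%), with a smallest limma adjusted p of 0.996, and 1135 (4.30%) had an unadjusted p under 0.05. The 5 genes with the smallest unadjusted p are given as values. DIPK2A differed by -0.27 in P and -1.56 in M, SMIM5 by -0.49 and -1.72, and CAPZA2, an actin-capping subunit, by -0.21 and -1.30. SMARCD1, a chromatin remodelling subunit, read 43.7, 47.3 and 54.5 in P neurons and 6.03, 15.9 and 7.57 in P layers (1.34 ± 0.28, limma adjusted p = 0.00395) and differed by -0.67 in M. PCDH20, a protocadherin, differed by 0.40 in P and -1.01 in M. For FGFR3 the P and M differences were -1.0 and -1.62 and for SLC1A3 -0.78 and -1.44, and neither difference between them passed (limma adjusted p of the interaction = 0.996 and 0.996). KIF5C was at 0.67 in P and 0.21 in M (limma adjusted p of the interaction = 0.996).

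**Figure D5:**
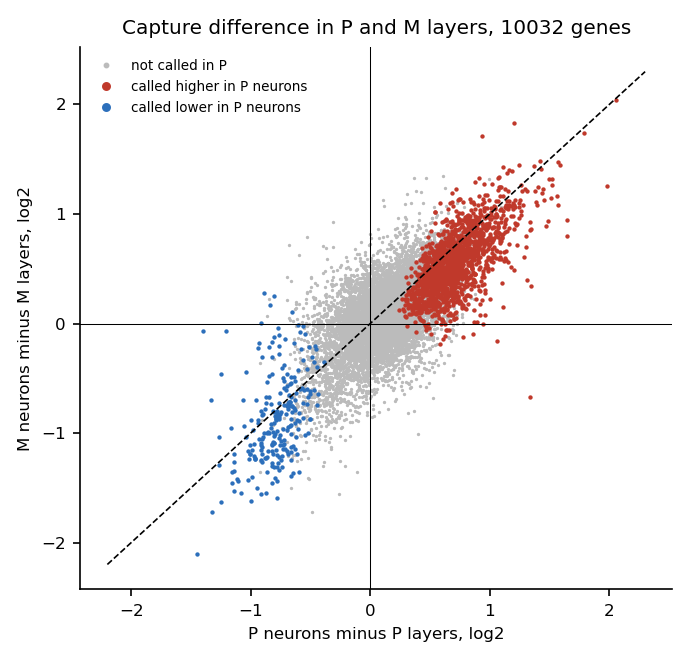
Difference between neurons and layers on the log2 scale in the magnocellular arrays against that in the parvocellular arrays for each of 10032 genes, with genes called in the parvocellular comparison in red (1651 higher) and blue (237 lower) and the line of equal differences dashed. Most coloured points had the same sign on both axes, and SMARCD1, at 1.34 in P and -0.67 in M, lay far from the line.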

How the data were processed

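Each of the 12 rhesus arrays has 1 deposited linear intensity per probe set, which the authors computed with MAS5, per the submitters' processing notes, which name no version. MAS5 summarises the probes of each set after subtracting background, and low values are noisy, and the number of arrays limits the precision. Samples were grouped and numbered by their titles. The array holds 52865 probe sets, 99 of them controls. Of the others 24956 carried 1 gene symbol in the platform annotation, which can be old, 361 carried several and 27449 none, and only probe sets with 1 symbol give a gene name here.

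Here each array was scaled to a common median over the probe sets outside the controls (13.5), and log2(signal + 16) was taken. Probe sets whose mean scaled signal over the 12 arrays reached the median of all (26383, lowest mean 12.6, representing 10032 genes) entered limma 3.58.1 in R 4.3.3, with 4 group means, 8 residual and 8.91 prior degrees of freedom and a variance trend with intensity. All tests were two-sided. Replicates are individual animals as the series describes them, and p-values measure the spread between these arrays.

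Named in full are the 15 higher and 15 lower called genes of largest difference without overlap between the groups. So are the 5 genes of smallest interaction p. The others were picked from the marker lists, from the called members and smallest p of the other lists, and from their disagreeing probe sets. Not every such member or probe set is named, so these genes are a selection. Symbols starting with LOC were left out. NDRG2, CNP, CD68, NEFH, PSMA7, FGFR3, SLC1A3 and KIF5C were in addition picked out after their values were seen. There were 28 lists, 11 of them of cell type markers, and 4 were added after values were seen. The members and lists were chosen with earlier results of these data known.

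Titles number the samples in each group. Deviations from group means correlated at 0.116 to 0.162 between P neurons and P layers of the same number, and 12 of 12 arrays correlated best with their own number, so the numbers were taken to pair the samples; this comes from the data, since the labels do not say so. The main model has no block. The fit with that pairing, called the replicate block, is given where it changes the call of a gene named with its brightest set. It is also given beside lists whose count it moves most, with the other lists in the closing section.

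Alternatives were constants of 1 and 64, no centring, centring after the logarithm, quantile normalization, no filter and a 75th percentile filter, P arrays alone, no trend, the replicate block, station as a block and leaving out each array. Station as a random block, the values within station 4 and centring on the tested probe sets were chosen after seeing the data. The tests were checked on simulated data, where 7.46% of changes of 0.5, 49.25% of 1 and 87.9% of 2 on the log2 scale were called. The simulation had 98 calls in all, against 3949 in the data, so its rates need not hold for the data. An uncalled gene may still differ. No genome or sequence table was used here.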

Additional observations from a re-analysis of the deposited data

How the results depend on the processing

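The 3949 called probe sets fell to 2208 under quantile normalization, to 232 when station entered as a block, and to 1551 within station 4 against M layers, an alternative chosen after seeing the data. Leaving out single P arrays gave 2159 (without P layer 3) to 3278. The other alternatives gave 2682 to 5680, and 5208 came from the replicate block. The interaction called 0 in every setting run. Of the 112 called genes named, 90 passed under quantile normalization and 29 under the station block, and 74 passed within station 4, where all 112 had their sign but 0.0636 (KCNA2) to 1.76 times (KCNJ10) the reported size. With the station block their differences had 0.254 to 1.83 times the reported size (median 1.09), lowest for RORA, and standard errors 1.29 to 2.01 times as wide; the cause of the other losses was not tested. The replicate block ended none of the 112 calls and added those of GFAP, GLUL, GAD2, FOXP2 and MBP. It changed no other call among the genes named with their brightest set. Of all 10032 tested genes it called 2158 higher and 330 lower. Under it the counts of the lists not given with the results were 10 higher for the pan-neuronal, 31 higher and 2 lower for the respiratory, 12 higher for the glycolytic, 12 higher for the endoplasmic reticulum, 10 higher for the ribosomal, 9 higher for the calcium-binding, 7 higher for the potassium channel, 7 lower for the astrocyte and 6 lower for the myelin list, and 3 transcription factors were lower. Leaving out single arrays ended 22 of the 112 calls, given with their genes.

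The genes whose sign turned were all uncalled. CAPZA2 was at 0.023 and PCDH20 at -0.078 with station as a block. CNP was at -0.12 after quantile normalization, -0.087 within station 4 and -0.11 with arrays centred on the tested probe sets, and at -0.010 to 0.094 without single arrays. GAD1 ran from -0.24 to 0.12 without single arrays. NDRG2 was at -0.058 after quantile normalization, NEFH at -0.19 within station 4 and TCF7L2 at -0.057 with arrays centred on the tested probe sets. PSMA7 was at -0.072 after quantile normalization, at -0.14 with arrays centred on the tested probe sets and at -0.045 to 0.055 without single arrays. Values near the floor of the array, such as those of CYB5R3 and SLC1A7, limit what the low end of the range can show.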

Other observations

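Further gene groups were set up after their values had been seen and are given as description. Of 7 tested subunits of the chaperonin that folds actin and tubulin, 6 were higher in P neurons (16.5% of all genes were) and 0 lower, with a median of 0.52 against 0.19 over all genes. CCT7 read 143, 151 and 171 in P neurons and 66.1, 68.2 and 74.5 in P layers, and CCT8 2182, 1944 and 1812 against 1419.8, 1426 and 1279. The groups were apart in both genes. After quantile normalization 2 of the 7 were higher, and CCT8 was not among them (limma adjusted p = 0.112).

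Enzymes of the citrate cycle and the malate-aspartate shuttle were higher in 8 of 13 tested genes (61.5%, against 16.5% of all genes). None was lower, and the median was 0.44. MDH2, the mitochondrial malate dehydrogenase, read 1854, 1696 and 1909.5 in P neurons and 993, 854 and 845 in P layers, and IDH3B, a subunit of isocitrate dehydrogenase, 322, 256 and 237 against 119, 83.1 and 82.5. Neither gene overlapped between the groups. Mitochondrial carriers, import and inner membrane genes were higher in 10 of 17 (58.8%, against 16.5%) and lower in 0, with a median of 0.57. SLC25A3, the phosphate carrier, differed by 1.28 ± 0.14 and VDAC3, an outer membrane channel, by 1.10 ± 0.15 (limma adjusted p = 3.84e-05 and 0.000194). After quantile normalization 5 of the 13 and 7 of the 17 were higher.

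Junction genes were lower in 3 of 10 tested (30%, against 2.36% of all genes) and higher in 0, with a median of -0.13. These were TJP1, given above, CLDN10, a claudin, at -0.79 ± 0.20, and F11R, a junctional adhesion molecule, at -0.65 ± 0.16. The call of CLDN10 was lost without P neuron 1, P neuron 3 or P layer 2, with limma adjusted p-values of 0.0526 to 0.0741. The call of F11R was lost without P neuron 3 or P layer 1, with limma adjusted p-values of 0.0507 to 0.0557.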
